A study of Homo sapiens with 6 samples.

Results

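Polycomb repressive complex 1 (PRC1) and its partner SCML2 were followed through the stepwise transformation of human BJ foreskin fibroblasts, on 6 whole-transcript microarrays. Of 9 genes listed (SCML2, CBX2, CBX6, CBX7, CBX8, BMI1, PCGF2, PHC1 and RING1), each was to be read by the probe set that carries its symbol alone and, where there are several, has the highest mean over the 6 arrays. This gave a value for 7 of the 9, among 18417 genes measured in the same way. CBX8 had no probe set in the annotation used here, and the 1 probe set of BMI1 also carries the symbol COMMD3-BMI1, so that neither gene is given a level.

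The arrays covered 3 cell lines with 2 biological replicates each. BJ are primary foreskin fibroblasts that carry no introduced gene. BJEL are BJ cells immortalised with the catalytic subunit of telomerase (hTERT) and the early region of the virus SV40, which encodes its T antigens, and were kept in G-418 and hygromycin. BJELM are BJEL cells that carry in addition a fusion of MYC with the oestrogen receptor (MYC-ER), delivered by a retroviral vector, and were grown in puromycin beside the other drugs and continuously with 4-hydroxytamoxifen (4-OHT), the ligand that activates the fusion. All 3 lines derive from BJ cells. In BJEL hTERT and the SV40 early region came together, and no line carries either alone. Each introduced gene came together with its selection drug, and the MYC step came together with 4-OHT. The parts of each step therefore cannot be told apart. Values are log2 RMA signals, in which 1 unit is a 2-fold difference. A signal depends on the probes as well as on the RNA, and levels are therefore compared between lines for 1 gene and not between genes.

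Polycomb proteins keep developmental genes silent. PRC1 is an E3 ligase that attaches a single ubiquitin to histone H2A, through the RING proteins RING1 and RNF2 held in a heterodimer with a PCGF protein. In canonical PRC1 the PCGF protein is PCGF2 (MEL18) or BMI1 (PCGF4), a CBX protein reads the methylated histone H3 written by PRC2, and a PHC protein lets complexes assemble into larger chromatin bodies through its SAM domain. SCML2 carries MBT repeats (malignant brain tumour, a fold that binds methylated lysines) and a SAM domain, associates with PRC1 and is best known from the male germ line of the mouse. In human fibroblasts PRC1 is known above all for holding down CDKN2A, which encodes the INK4A and ARF proteins.

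The promoters of the members on which the results turn are shown first, because SCML2, CBX6 and RING1 are the members with an adjusted p under 0.05 in at least 1 comparison. Each line holds the 250 bases before the transcription start of the gene in RefSeq (GRCh38.p14), 5′ to 3′ on the strand of the gene. Capitals mark the E-box CACGTG, the sequence bound by MYC with MAX. The windows are chrX:18354689-18354938 on the minus strand for SCML2, chr22:38872217-38872466 on the minus strand for CBX6 and chr6:33208250-33208499 on the plus strand for RING1.
SCML2: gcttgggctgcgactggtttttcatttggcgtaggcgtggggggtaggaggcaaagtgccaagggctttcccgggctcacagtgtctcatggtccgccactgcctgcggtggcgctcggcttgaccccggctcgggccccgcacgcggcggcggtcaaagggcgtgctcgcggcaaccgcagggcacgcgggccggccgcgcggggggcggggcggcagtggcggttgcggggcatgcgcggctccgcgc
CBX6: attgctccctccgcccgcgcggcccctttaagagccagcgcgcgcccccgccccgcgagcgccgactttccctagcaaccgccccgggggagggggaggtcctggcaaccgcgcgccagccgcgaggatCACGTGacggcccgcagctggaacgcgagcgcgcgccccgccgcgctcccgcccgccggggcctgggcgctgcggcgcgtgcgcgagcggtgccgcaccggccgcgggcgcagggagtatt
RING1: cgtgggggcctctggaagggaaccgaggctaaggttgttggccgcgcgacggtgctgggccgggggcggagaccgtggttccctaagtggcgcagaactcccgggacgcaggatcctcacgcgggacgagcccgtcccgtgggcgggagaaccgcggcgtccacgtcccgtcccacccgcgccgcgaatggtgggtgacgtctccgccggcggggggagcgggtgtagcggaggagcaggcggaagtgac
The SCML2 window was 74% G or C and that of RING1 72.8%, against a median of 58% over 35116 such windows. Both strands of each window were searched for the E-box CACGTG, the E2F sequences TTTCCCGC and TTTGGCGC, the cell cycle element TTTGAA (CHR) and the YY1 sequence AANATGGCG, which are found in 6.34%, 1.93%, 13.3% and 1.38% of all windows. CBX6 held 1 E-box, which starts at position -121 relative to the transcription start, and a window of BMI1 held 1 at position -70. None of these sequences occurred in the windows of SCML2, RING1, CBX7, PCGF2 or PHC1. A match is a description of the letters and not a site of binding, and CBX2 and CBX8 had no window in the table used.

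Before the comparisons, the labels were checked on the introduced genes. TERT was at 10.71 and 10.97 in BJEL and at 10.84 and 10.78 in BJELM, against 7.77 and 7.88 in BJ. MYC was at 9.57 and 8.90 on the arrays labelled BJELM, against 10.22 and 10.12 in BJEL and 9.47 and 9.61 in BJ, so that its signal was not higher on the arrays labelled BJELM. Where its probes lie relative to the introduced MYC-ER is not known here, and the line is named by its label throughout. The correlation of all genes was 0.992 to 0.995 between the replicates of a line and 0.943 to 0.981 between lines, and no pair of arrays held identical values. The 10 fibroblast markers averaged 11.87 to 12.02 in BJ, 10.48 to 10.58 in BJEL and 9.93 to 10.55 in BJELM. Of these 10, 6 fell in BJEL and 8 fell in BJELM, both against BJ, with decorin (DCN) lower by the most in both. Among all genes 2.29% fell in BJEL and 4.7% in BJELM, both against BJ. Markers of epithelium, endothelium, leukocytes, melanocytes and germ cells averaged 4.68 to 7.96 per array over all lines. These averages cover single genes with a much higher signal, such as KRT18 (12.15 and 11.70 in BJ) and CD68 (11.24 and 11.41 in BJ). Of these markers the called genes were KRT19 and MITF, which fell by 1.65 and 1.68 in BJELM against BJ, CD68, which fell by 1.04 against BJ and 1.08 against BJEL, and TEX15, described below. Their part in the results below was not tested.

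SCML2 was the member that moved. Its signal was 7.80 and 7.57 in BJEL, against 5.42 and 5.71 in BJ. Both BJEL arrays lay above both BJ arrays, with the BJEL values over the array medians (6.37 to 6.46) and the BJ values under them. SCML2 rose by a measured 4.35-fold in BJEL against BJ, by 2.12 ± 0.15 on the log2 scale (SE, n = 2 arrays each), with a 95% interval of 1.75 to 2.49 and an adjusted p of 0.001. The deposited values carry no detection call, and the BJ level of SCML2 was near the mean of the endothelial markers in BJ (5.59 to 5.60), which fibroblasts are not known to express. SCML2 was thus not shown to be above background in BJ, and its measured folds against BJ, here and in BJELM, may understate the difference. In bulk RNA, more cells that express a gene and more RNA per cell cannot be told apart.

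On the arrays labelled BJELM, SCML2 was at 7.05 and 6.77, and these values lay between those of BJ and BJEL without touching either. Against BJ it rose by a measured 2.54-fold, by 1.34 ± 0.15 (95% interval 0.97 to 1.72, adjusted p = 0.00171). Against BJEL its difference was -0.77 ± 0.15 (95% interval -1.15 to -0.40, adjusted p = 0.0296), short of the 2-fold minimum that a call required here. The order of the lines for SCML2 was therefore BJ at 5.57 ± 0.20, BJELM at 6.91 ± 0.20 and BJEL at 7.69 ± 0.16 (mean ± SD, n = 2 each). For the last step of that order, an adjusted p under 0.05 depends on single arrays. The difference itself ran from -0.92 to -0.63 over the fits without 1 array. The adjusted p of BJELM against BJEL was 0.161 without BJEL replicate 1, 0.0747 without BJEL replicate 2 and 0.111 without BJELM replicate 2. The rises against BJ were called without any 1 of the 6 arrays, at 1.97 to 2.26 in BJEL and 1.20 to 1.49 in BJELM.

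**Figure D1:**
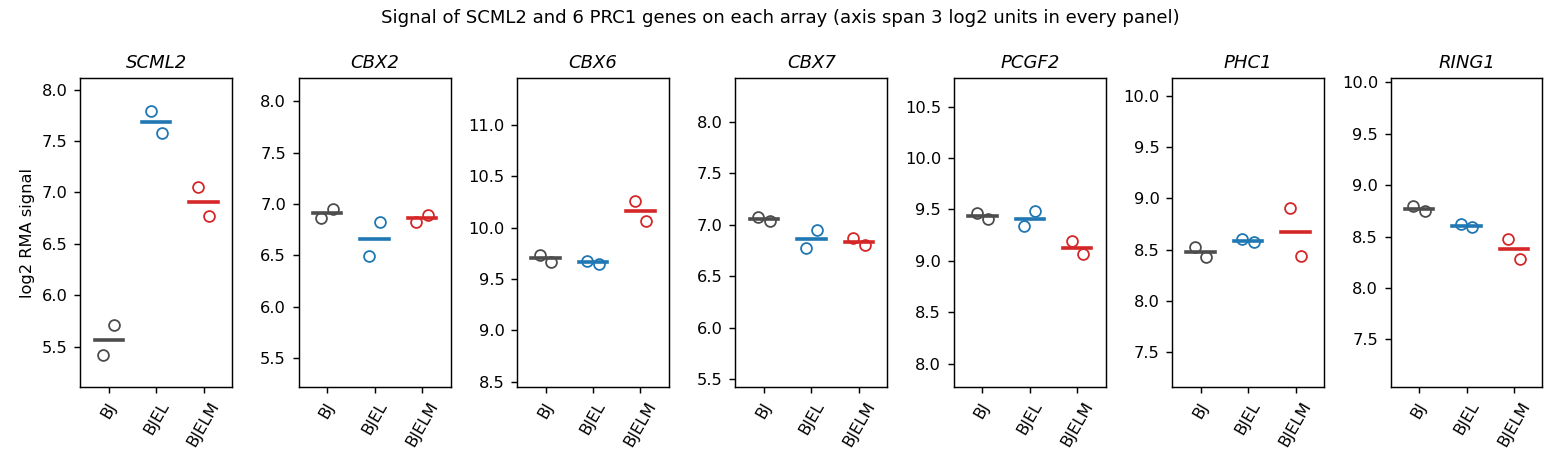
The vertical axis gives the log2 RMA signal, with the same span of 3 units in every panel, and the horizontal axis the 3 cell lines in the order of transformation. Open circles are single arrays and bars the mean of the 2 arrays of a line. SCML2 is the gene with the widest differences between lines, with means of 5.57, 7.69 and 6.91 in BJ, BJEL and BJELM.

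The chromobox proteins are the subunits of canonical PRC1 that read methylated histone H3. CBX6 was at 10.26 and 10.06 on the arrays labelled BJELM, against 9.74 and 9.66 in BJ and 9.68 and 9.64 in BJEL. Both BJELM values lay above all 4 others, which overlapped among themselves. CBX6 was higher in BJELM by 0.46 ± 0.10 against BJ (1.37-fold, adjusted p = 0.0167) and by 0.50 ± 0.10 against BJEL (1.41-fold, adjusted p = 0.0296), under the 2-fold minimum in both. In BJEL against BJ its difference was -0.04 ± 0.10 (adjusted p = 0.847). The adjusted p against BJ was 0.0657 without BJ replicate 1, 0.0893 without BJ replicate 2 and 0.0641 without BJELM replicate 1, and against BJEL it was above 0.05 in each fit without 1 array, except that without BJELM replicate 2 (0.0453).

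CBX2, which can also compact nucleosomes, was at 6.49 and 6.83 in BJEL, against 6.87 and 6.95 in BJ. On the arrays labelled BJELM it was at 6.83 and 6.89, within the range of the other 4 arrays. Its differences were -0.25 ± 0.13 in BJEL against BJ (adjusted p = 0.245), -0.05 ± 0.13 in BJELM against BJ (adjusted p = 0.853) and 0.20 ± 0.13 in BJELM against BJEL (adjusted p = 0.393). Its BJEL replicates set the first and last of these, at -0.08 and 0.04 without BJEL replicate 1 and -0.42 and 0.37 without BJEL replicate 2. CBX7, the chromobox protein best known for repressing CDKN2A in human fibroblasts, was at 6.77 and 6.95 in BJEL and at 6.87 and 6.81 in BJELM, against 7.08 and 7.04 in BJ. All 4 arrays of the derived lines lay under both BJ arrays, by a difference of -0.20 ± 0.09 in BJEL (adjusted p = 0.216) and -0.22 ± 0.09 in BJELM (adjusted p = 0.144) that did not pass the test.

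RING1, the catalytic RING protein, was at 8.48 and 8.28 on the arrays labelled BJELM, against 8.80 and 8.75 in BJ. In BJEL it was at 8.62 and 8.59, so that the arrays of the 3 lines did not overlap and the signal was lower at each stage. The difference was -0.39 ± 0.10 in BJELM against BJ (95% interval -0.63 to -0.16, adjusted p = 0.0266), -0.17 ± 0.10 in BJEL against BJ (adjusted p = 0.316) and -0.23 ± 0.10 in BJELM against BJEL (adjusted p = 0.207). None of them reached 2-fold, and the first kept an adjusted p under 0.05 only without BJELM replicate 1 (0.0239), among the 6 fits that left out 1 array. A further RING1 probe set, with nearly the same signal on each array, gave -0.36 in BJELM against BJ. When every probe set was tested, both RING1 probe sets had an adjusted p of 0.047. They read the same gene on the same arrays, so that the further one is no independent support.

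PCGF2, the partner that holds the RING protein in canonical PRC1, was at 9.19 and 9.07 on the arrays labelled BJELM, against 9.34 and 9.48 in BJEL and 9.46 and 9.41 in BJ. Its BJELM arrays lay under the 4 others, with differences of -0.31 ± 0.10 against BJ (adjusted p = 0.0609, and 0.0349 with the replicate number as a block) and -0.28 ± 0.10 against BJEL (adjusted p = 0.129). PHC1, the polyhomeotic subunit with a SAM domain, was at 8.90 and 8.44 on the arrays labelled BJELM, against 8.60 and 8.58 in BJEL and 8.53 and 8.43 in BJ. The BJELM replicates of PHC1 differed from each other by more than the lines did, and its differences of 0.11 in BJEL and 0.19 in BJELM, both against BJ (adjusted p = 0.70 and 0.466), did not pass the test. A further PHC1 probe set with the same listed transcripts gave 0.10 and 0.17. RefSeq also lists a PHC1 pseudogene (PHC1P1), so that the reading of PHC1 is uncertain.

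**Figure D2:**
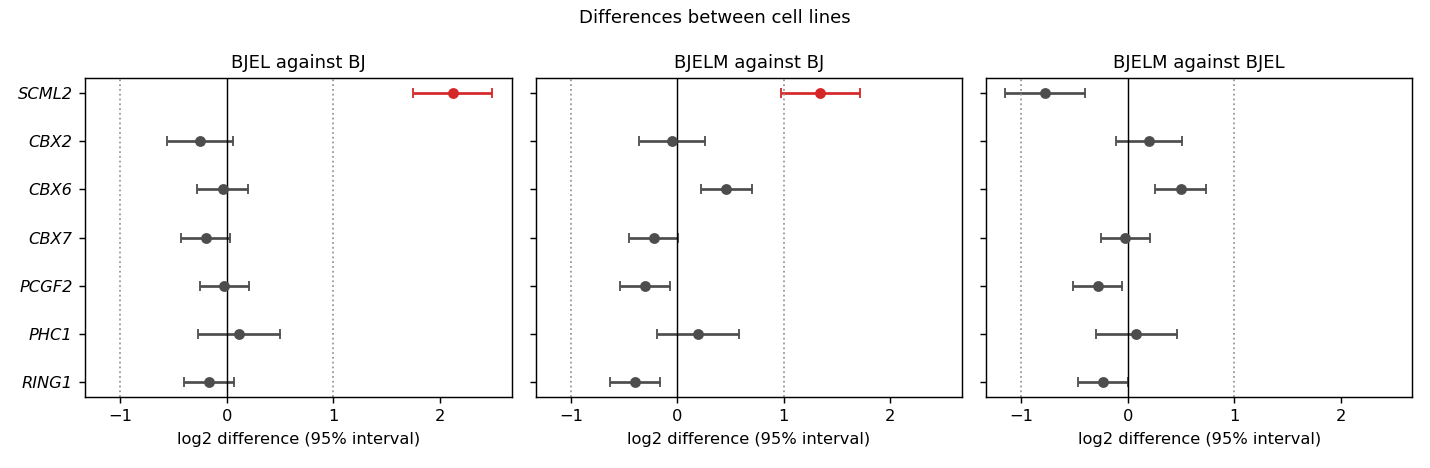
The horizontal axis gives the log2 difference of the first named line minus the second, with its 95% interval, for each of the 7 genes in 3 comparisons, and dotted lines mark 2-fold. The 2 red points, SCML2 at 2.12 in BJEL and 1.34 in BJELM against BJ, are the ones that passed both the adjusted p and the fold minimum.

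Over the 7 genes, 1 rose and 0 fell in BJEL against BJ. Of all genes 5.18% were called there, 2.89% higher and 2.29% lower, and the count among the 7 rests on SCML2 alone. In BJELM against BJ 1 rose and 0 fell, against 8.79% of all genes called, 4.09% higher and 4.7% lower. An adjusted p under 0.05 was reached there by 3 of the 7, SCML2 and CBX6 higher and RING1 lower, and by 28.2% of all genes. With the replicate block, PCGF2 also had an adjusted p under 0.05 there. In BJELM against BJEL 0 of the 7 were called by limma, against 2.68% of all genes (0.923% higher and 1.76% lower). CBX6, higher, and SCML2, lower, had an adjusted p under 0.05 in that comparison, as did 10.8% of all genes, and an unadjusted p under 0.05 was found for these and PCGF2.

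The arrays of the lines did not overlap for 5 of the 7 in each comparison, 2 higher and 3 lower. In BJEL against BJ this held for 61.2% of all genes, 29.2% higher and 32% lower. In BJELM against BJ it held for 60.5% of all genes (31.7% higher and 28.8% lower), and in BJELM against BJEL for 52.8% (28.8% higher and 24% lower). Arrays that do not overlap were thus common throughout the genome, and the share among the 7 was near it. The median difference of the 7 was -0.04, -0.05 and -0.02 in the 3 comparisons in that order, and that of all genes was -0.02, 0.01 and 0.03. Apart from SCML2, the 95% intervals of the other 6 in BJEL against BJ ran no further than -0.56 to 0.49. A 2-fold difference in signal thus lay outside each of these intervals. In the other comparisons they ran no further than -0.63 to 0.74. CBX2 and CBX7 lay, like SCML2, under the median level of all genes (7.26). No detection call shows them above background, so that their signals may understate a difference in RNA. The comparisons share arrays and are not independent of each other.

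Of 9 further genes listed for the core of PRC1, 8 had a value, and none of the 8 was called in any comparison. RNF2, the RING protein beside RING1, had no value, so that this part of the core was not read. PCGF6, the PCGF protein of a variant complex that works with MAX and MGA, had the widest difference, at 10.25 and 9.88 in BJEL and 10.32 and 10.15 in BJELM, against 9.25 and 9.24 in BJ. Both derived lines lay above BJ, by 0.82 ± 0.14 in BJEL (adjusted p = 0.0129) and 0.99 ± 0.14 in BJELM (1.99-fold, adjusted p = 0.00374), just under the minimum for a call. It passed that minimum at 1.01 in BJEL without BJEL replicate 2 and at 1.08 in BJELM without BJELM replicate 2. In BJELM against BJEL the widest difference was that of PCGF3, at 0.42 (adjusted p = 0.0938).

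Variant PRC1 lacks the CBX proteins of canonical PRC1 and is recruited through other partners, of which 19 of 20 had a value. None was called. With an adjusted p under 0.05, 5 were higher and 0 lower in BJEL against BJ, 7 higher and 2 lower in BJELM against BJ, and 1 higher and 1 lower in BJELM against BJEL, where all genes gave 10.4% and 7.13%, 15.1% and 13.1%, and 4.53% and 6.28%. The median of the list was 0.20, 0.23 and -0.02. L3MBTL2, an MBT protein of the PCGF6 complex, was higher by 0.65 ± 0.15 in BJEL against BJ (adjusted p = 0.0334). KDM2B, which brings the PCGF1 complex to CpG islands, was higher by 0.63 ± 0.14 in BJELM against BJ (adjusted p = 0.0204). AUTS2, a partner of PCGF5 and PCGF3 complexes, was at 5.85 and 5.99 on the arrays labelled BJELM, against 6.58 and 6.70 in BJEL, a difference of -0.73 ± 0.09 (adjusted p = 0.00882). In BJ it was at 6.02 and 6.07. Against BJ, AUTS2 differed by 0.60 ± 0.09 in BJEL (adjusted p = 0.00974) and -0.13 ± 0.09 in BJELM (adjusted p = 0.412). Its BJ and BJELM signals were not shown to be above background.

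SCML2 was not alone among MBT and SAM domain proteins. All 12 relatives listed had a value, and 2 of them rose in BJEL against BJ, where 2.89% of all genes rose. L3MBTL3 and SAMD11, named after their values were seen, were lower there, both by -0.47 (adjusted p = 0.0303 and 0.0374), and L3MBTL3 was higher by 0.69 in BJELM against BJEL (adjusted p = 0.0136), opposite to SCML2. SCML1, a germ line gene of the same family, was at 8.82 and 8.76 in BJEL, against 7.64 and 7.55 in BJ, and rose by 1.19 ± 0.09 (2.29-fold, adjusted p = 0.001). SFMBT1, an MBT protein found with the demethylase KDM1A, was at 8.88 and 8.59 in BJEL, against 7.24 and 7.19 in BJ, and rose by 1.52 ± 0.18 (2.87-fold, adjusted p = 0.00358). As for SCML2, the arrays labelled BJELM lay between the other lines for both genes, at 8.27 and 8.18 for SCML1 and at 8.13 and 7.64 for SFMBT1. Against BJEL the differences of the arrays labelled BJELM were -0.57 ± 0.09 for SCML1 (adjusted p = 0.0138) and -0.85 ± 0.18 for SFMBT1 (adjusted p = 0.0358), both under 2-fold. Against BJ they were 0.63 ± 0.09 for SCML1 (adjusted p = 0.00333) and 0.67 ± 0.18 for SFMBT1 (adjusted p = 0.0367), and the value of SFMBT1 ran from 0.42 without BJELM replicate 1 to 0.91 without BJELM replicate 2, with an adjusted p above 0.05 without BJ replicate 1 (0.126), BJ replicate 2 (0.137) or BJELM replicate 1 (0.103). In BJELM against BJEL, the difference of SFMBT1 passed 2-fold without BJELM replicate 1, at -1.10, and its adjusted p over the fits without 1 array was 0.0186 to 0.182. The median of the 12 relatives was 0.00, 0.06 and 0.05 in the 3 comparisons, against -0.02, 0.01 and 0.03 for all genes.

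**Figure D3:**
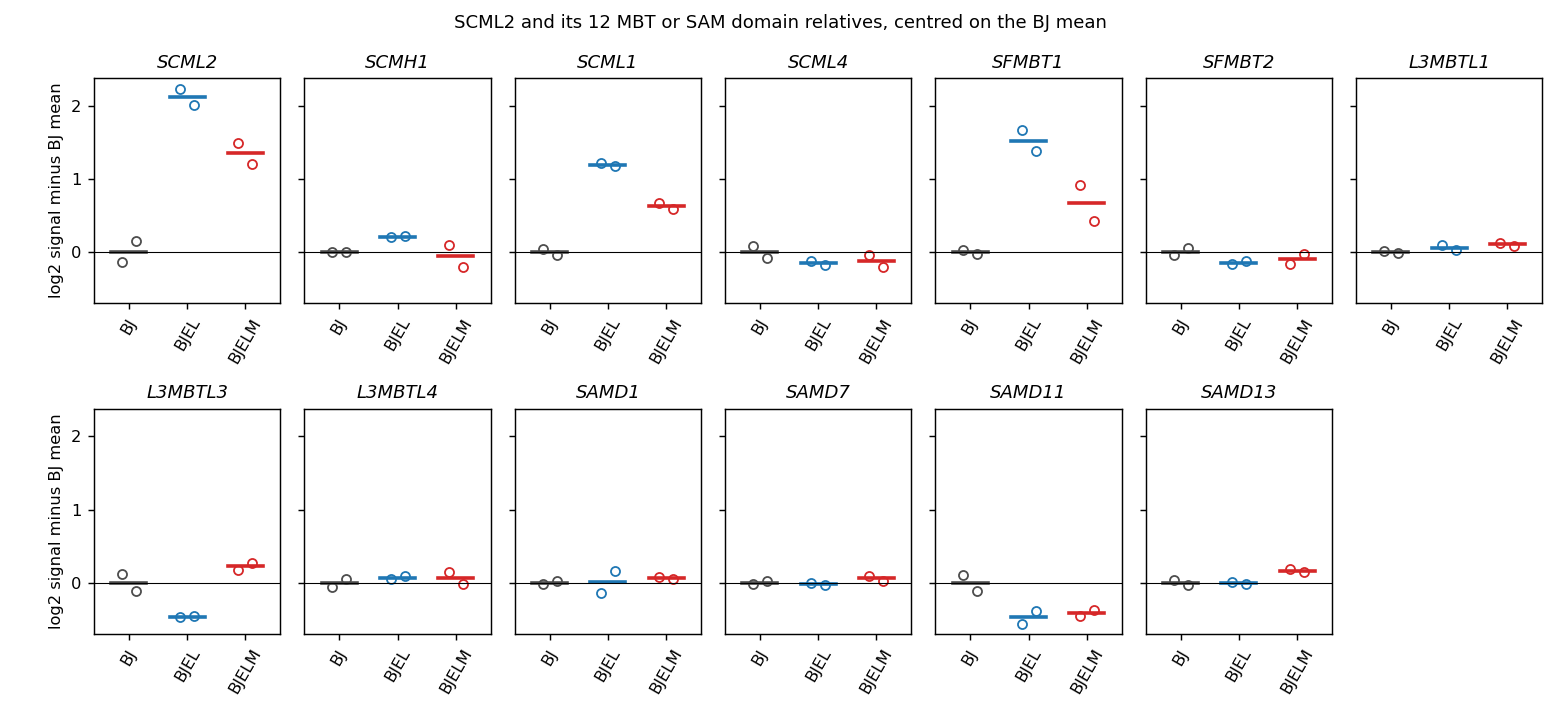
The vertical axis gives each array's log2 signal minus the BJ mean of the gene, for SCML2 and the 12 relatives with MBT repeats or a SAM domain, and the horizontal axis the 3 cell lines. Circles are arrays and bars are means of 2 arrays, and SCML2, SCML1 and SFMBT1 share a high BJEL value (2.12, 1.19 and 1.52) and an intermediate BJELM value (1.34, 0.63 and 0.67).

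SCML1 and SCML2 both lie on the X chromosome, in the RefSeq gene order with RAI2 and BEND2 as the measured genes between them. This stretch was looked at after the values were seen. In BJEL against BJ the difference was 0.00 for RAI2 (adjusted p = 0.989) and -0.02 for BEND2 (adjusted p = 0.909). On the far side of SCML2, PPEF1 and PHKA2 differed by 0.06 and 0.14 (adjusted p = 0.713 and 0.432). SCML1 and SCML2 were thus called while these 4 measured neighbours were not. CBX6 and CBX7 are likewise both on chromosome 22, and of these only CBX6 had an adjusted p under 0.05.

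The genes whose 6 array values, taken from their BJ mean, lay nearest to those of SCML2 were RAD51AP1, C5orf34 and FAM111B. Their root mean square distance from SCML2 was 0.09, 0.13 and 0.16 log2 units over 6 arrays. They were chosen as the nearest of all genes, so that their differences follow from the choice and are a description. RAD51AP1, a factor of homologous recombination, differed by 2.03 in BJEL and 1.34 in BJELM, both from BJ. FAM111B, which encodes a trypsin-like protease, differed by 2.18 and 1.49. A list of 20 DNA replication genes moved in the same comparisons as SCML2. Of them 17 rose in BJEL and 17 in BJELM, both against BJ, with the licensing factor CDC6 at 2.28 and 2.14 and ORC6 at 2.00 and 1.77, and with a median of 1.45 and 1.503, and 0 were called in BJELM against BJEL, where the median was -0.03 and that of SCML2 was -0.77. Among all genes 2.89% rose in BJEL and 4.09% in BJELM, both against BJ. The part of proliferation in the SCML2 values was not tested. The germ line markers averaged 4.71 to 4.73 in BJEL, against 4.68 to 4.70 in BJ, and 0 of 6 were called there. In BJELM 1 of the 6 rose against BJ, TEX15, which acts in meiotic recombination in the mouse, at 6.98 and 6.87 in BJELM, against 4.53 and 4.75 in BJ (adjusted p = 0.000137). TEX15 also rose in BJELM against BJEL, where it was at 4.99 and 4.97 (adjusted p = 0.00117). Its BJ level lay with that of the germ line list (4.68 to 4.70) and was not shown to be above background, so that no fold is given.

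PRC2, which writes the mark that CBX proteins read, had values for 11 of 11 listed subunits. In BJEL against BJ 2 rose, MTF2 by 1.59 ± 0.10 (adjusted p = 0.000734) and EZH2, the methyltransferase, by 1.07 ± 0.14 (adjusted p = 0.00469), and in BJELM against BJ 1 rose, MTF2 by 1.51 ± 0.10 (adjusted p = 0.000356). In these 2 comparisons 2.89% and 4.09% of all genes rose. With an adjusted p under 0.05, 7 of the 11 were higher and 0 lower in BJEL, where all genes gave 10.4% and 7.13%. In BJELM 8 were higher and 1 lower, where all genes gave 15.1% and 13.1%. The median of the list was 0.42 and 0.52, against -0.04 and -0.05 for SCML2 and the PRC1 members. The difference between the lists was not tested. The call of EZH2 in BJEL ended without BJ replicate 1, at 0.88. In BJELM against BJEL 0 of the 11 were called, and PHF1 had the widest difference, at -0.87 ± 0.15 (adjusted p = 0.0215).

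Other chromodomain and heterochromatin proteins had values for 8 of 8 listed, of which 2 rose in each derived line against BJ. These were the histone H3 methyltransferases SUV39H1, by 1.21 ± 0.13 in BJEL and 1.08 ± 0.13 in BJELM, and SUV39H2, by 1.32 ± 0.24 and 1.51 ± 0.24. Among all genes 2.89% rose in BJEL and 4.09% in BJELM, both against BJ. The call of SUV39H2 in BJEL ended without BJ replicate 1 and without either BJEL replicate (adjusted p = 0.0725, 0.0624 and 0.0783), and that of SUV39H1 in BJELM without BJELM replicate 1, at 0.93. CDYL2 had the widest difference in BJELM against BJEL, at -0.71 ± 0.12 (adjusted p = 0.0168), and 0 of the 8 were called there.

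Of 10 genes for enzymes and partners that remove ubiquitin from H2A, 9 had a value and none was called. The deubiquitinase BAP1 was the gene without a value. FOXK2, a DNA-binding partner of the BAP1 complex, was at 10.77 and 10.82 on the arrays labelled BJELM, against 10.06 and 10.11 in BJ, a difference of 0.71 ± 0.09 (adjusted p = 0.00253). The deubiquitinase MYSM1 was higher by 0.50 ± 0.10 in BJEL against BJ (adjusted p = 0.0182), and USP3, another, by 0.42 ± 0.08 in BJELM against BJEL (adjusted p = 0.0263). The median of the 9 was 0.11 in BJEL and 0.35 in BJELM, both against BJ, and 0.14 in BJELM against BJEL.

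**Figure D4:**
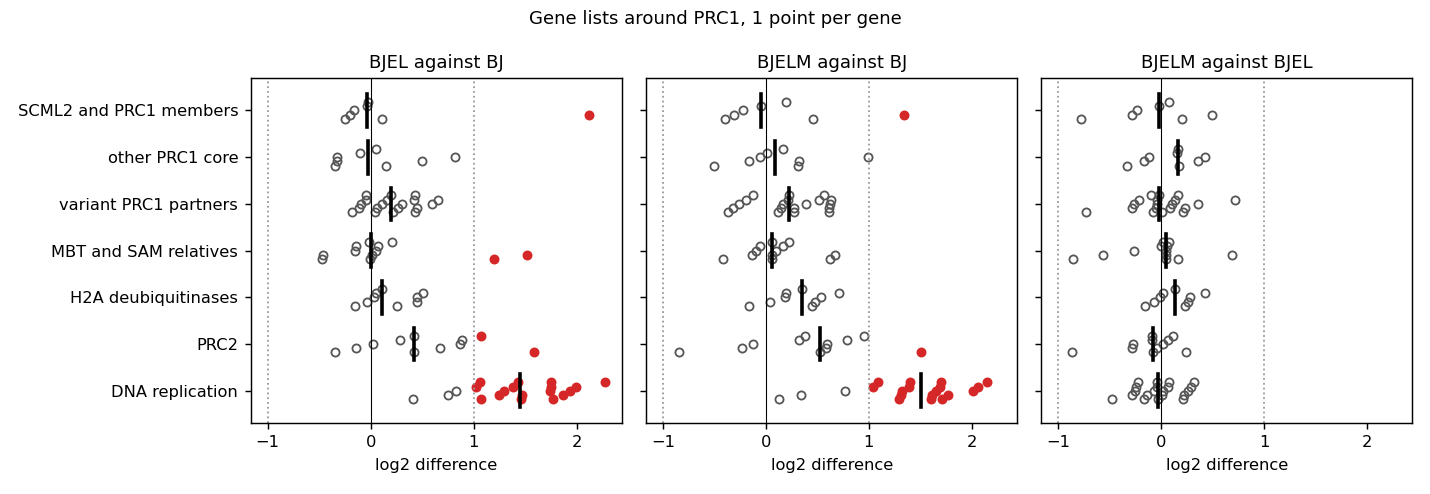
The horizontal axis gives the log2 difference in each comparison and each point is 1 gene of the list named on the vertical axis, filled red where it was called, with a black bar at the median and dotted lines at 2-fold. Calls are SCML2 among the 7 members (1, 1 and 0), 2, 0 and 0 among MBT and SAM relatives, 2, 1 and 0 in PRC2, 17, 17 and 0 in DNA replication, and none in the other 3 lists drawn.

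Genes known as targets of Polycomb were read beside the complex. CDKN2A was at 10.24 and 9.91 in BJEL and at 10.30 and 10.01 in BJELM, against 8.18 and 8.21 in BJ. It rose by 1.88 ± 0.15 in BJEL (3.67-fold, adjusted p = 0.00119) and by 1.96 ± 0.15 in BJELM (3.89-fold, adjusted p = 0.000499). CBX7 differed in these comparisons by -0.20 and -0.22 without passing the test. A link between CDKN2A and CBX7 was not tested, and both derived lines also carry the SV40 T antigens. CDKN2B, the neighbour of CDKN2A and a further inhibitor of cyclin-dependent kinases, differed by 0.56 ± 0.14 in BJEL (adjusted p = 0.0445) and 0.30 ± 0.14 in BJELM (adjusted p = 0.197), both against BJ. Of 39 HOX genes, the developmental regulators first known as Polycomb targets, 27 had a value. HOXA2 was the only gene of the HOXA cluster among them. By limma 0 of the 27 were called in BJEL or in BJELM against BJ, and their medians were -0.08 in both. The medians include genes not shown to be above background in any line, such as HOXB5 (4.68 to 4.81 over the arrays) and HOXD12 (4.72 to 5.02). With an adjusted p under 0.05, 3 were lower in BJEL and 6 were lower and 2 higher in BJELM, where 7.13% of all genes were lower in BJEL and 13.1% lower and 15.1% higher in BJELM. HOXD10 was at -0.84 ± 0.15 in BJEL (adjusted p = 0.014) and HOXB2 at -0.84 ± 0.09 in BJELM (adjusted p = 0.00123). The HOXB2 signals, 5.58 and 5.48 in BJ and 4.70 and 4.69 in BJELM, were not shown to be above background. HOXD13 and HOXD8, named after their values were seen, were the 2 higher in BJELM, by 0.80 ± 0.12 (adjusted p = 0.00454) and 0.74 ± 0.14 (adjusted p = 0.0116). HOXC10 fell in BJELM against BJEL, to 6.92 and 6.75 against 8.03 and 7.84 in BJEL, a difference of -1.10 ± 0.16 (adjusted p = 0.0126). Its call was lost without BJEL replicate 1 (adjusted p = 0.0811) or BJELM replicate 2 (0.0579).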

How the data were processed

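RNA of BJ, BJEL and BJELM cells (2 arrays each) was hybridised to Affymetrix Gene 1.0 ST arrays. The deposited values are log2 RMA signals that the authors made with Affymetrix Expression Console 1.3.1. The annotation paired 19460 of 33297 probe sets with 1 symbol, 1754 carried several and 12083 were not listed. For each of 18417 genes the probe set with the highest mean was kept, without a filter on dim signals. A mean per line was fitted with limma 3.58.1 (R 4.3.3) over all 6 arrays, and p-values were adjusted by Benjamini-Hochberg over all genes. Rose or fell means an adjusted p under 0.05 and at least 2-fold. The fit had 3 residual degrees of freedom, and precision is limited by how few arrays there were. RMA equalises the distributions of the arrays, which hides a change shared by all RNAs.

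The members and gene lists were chosen with earlier results of these data known. Named were the members, TERT and MYC, and genes among the up to 4 called with the widest change of each list, or else the 1 widest. Exceptions are said to be named after their values were seen. Arrays with the same replicate number in the labels deviated together (correlations of 0.448, 0.481 and 0.553 between lines), and the number was fitted as a block as an alternative. The study's ChIP-seq data are not analysed here. Alternatives were another scaling, filters, probe set rules, fold minimum and fit, a replicate block, the methods' t-test and leaving out each array.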

Additional observations from a re-analysis of the deposited data

How the results depend on the processing

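The calls of SCML2 against BJ were lost under a filter and under another test with adjustment, which called no gene at all. It passed the filter on a group mean of 6 through BJEL and BJELM alone, so that its call there is no support. Only genes at or above the median level left 0 members called in BJEL and in BJELM against BJ, because SCML2 lies under that level. The methods' t-test after Benjamini-Hochberg gave 0 in both as well (SCML2 adjusted p = 0.445 and 0.341), and 0 calls among all genes. With no gene called, that version cannot tell SCML2 from any other gene. The study applied its test at 0.05 without this adjustment and with a 2-fold minimum, and the outcome of that setting is not given here. Without a fold minimum, 3 members were called in BJELM against BJ (SCML2, CBX6 and RING1), beside 28.2% of all genes. In BJELM against BJEL 2 were (SCML2 and CBX6), beside 10.8% of all genes. With a 1.5-fold minimum, 1 was called in BJELM against BJEL (SCML2). Leaving out single arrays turned the sign of uncalled values, at -0.096 to 0.049 for PCGF2 in BJEL against BJ, -0.042 to 0.43 for PHC1 in BJELM against BJ, and -0.11 to 0.063 for CBX7 and -0.15 to 0.32 for PHC1 in BJELM against BJEL. With the replicate block, SCML2 stood at 2.12 (adjusted p = 0.000119), 1.34 (0.000325) and -0.77 (0.00849), and the calls over all genes were 993, 1644 and 544, against 954, 1619 and 494 without it. The block changed no call of a member, and moved PCGF2 in BJELM against BJ to an adjusted p of 0.0349. Alternatives for genes beside the members were added after seeing the data.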
